A study of Mus musculus with 4 samples.

Results

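Granzymes, perforin and Fas ligand are the products with which cytotoxic lymphocytes kill other cells. The 10 genes described here are Gzma, Gzmb, Gzmc, Gzmd, Gzme, Gzmf, Gzmk, Gzmm, Prf1 and Fasl, out of 33696 features measured. They were chosen by name, and their transcripts were counted in CD8 T cells, CD4 T cells, gamma-delta T cells and natural killer (NK) cells, which were set apart by marker genes that do not include any of the 10.

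Granzymes are serine proteases stored with perforin in lytic granules. When a killer cell meets its target, the granules are released into the contact, perforin (Prf1) opens the target's membrane, and granzymes enter and cleave proteins that start apoptosis. Fas ligand (Fasl) is a membrane protein of the killer cell that triggers the death receptor Fas on the target, a route that does not need granules. In tumours these genes mark CD8 T cells and NK cells with effector function, and the amount of transcript differs widely from cell to cell.

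The cells came from tumours of KPC, a mouse pancreatic carcinoma line, grown under the skin of C57BL/6 male mice of 8 to 10 weeks. Of the 4 groups, 1 was untreated, 1 received the STING agonist ADU-S100, a cyclic dinucleotide analogue, by injection into the tumour, 1 received antibody clone 4H8, which activates the lymphotoxin-β receptor (LTβR agonist), by the intraperitoneal route, and 1 received both (combination). Tumours were removed on day 14, 10 tumours were pooled for each group, and live CD45+ leukocytes were sorted. Each group was therefore 1 library without a replicate, no difference between groups could be tested, and every value compares libraries. The question is which of the sorted cells held these transcripts, and whether their level within a cell type differed between the libraries. The untreated library is the reference of all 3 treated libraries, so their ratios to it are not independent.

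The libraries held 8730 to 16322 cells, and 89.1 to 96.2% of them were kept. Median depth per cell was 4712 UMIs (unique molecular identifiers, each counting 1 captured molecule) in the untreated library and 2157.5 in the combination library, with the other libraries between them. T and NK cells together made 16.6% of the kept cells in the untreated library, 4.90% in the STING agonist library, 15.9% in the LTβR agonist library and 9.94% in the combination library. The CD8 gate held 447, 176, 614 and 584 cells in the order untreated, STING agonist, LTβR agonist and combination, an order kept for every list of 4 values that follows, while lists of 3 values give the treated libraries in the same order. The NK gate held 277, 242, 569 and 373 cells, the CD4 gate 169, 78, 267 and 116, and the gamma-delta gate 30, 12, 46 and 29. Between 34 and 83 cell barcodes were shared by any pair of libraries, at most 0.539% of the barcodes of either library.

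Genes that had no part in the gates were checked. Lck, a kinase of the T cell receptor that NK cells also use, was at 499 to 544 CPM in the CD8 gate and 280 to 333 in the NK gate. Cd5, a T cell surface protein, was at 101 to 139 CPM in the CD8 gate and at most 3.6 in the NK gate. Tyrobp, an adaptor of NK receptors, was at 1240 to 1651 CPM in the NK gate and 16.8 to 45.7 in the CD8 gate, and Eomes, a transcription factor of NK cells and memory CD8 T cells, was at 268 to 350 in the NK gate. The NK gate can hold other group 1 innate lymphoid cells. Macrophage genes not used by the gates were present at a low level in both gates, with 7 of 7 detected and a summed level of 248 to 394 CPM in CD8 cells and 189 to 408 in NK cells, highest in the combination library. The summed level of 4 neutrophil genes not used by the gates was 16.3, 108, 26.7 and 73.3 CPM in CD8 cells and 22.5, 111, 29.5 and 69.2 in NK cells (untreated, STING agonist, LTβR agonist, combination), with at least 3 of 4 detected and the STING agonist library highest. The part of either list in the results was not tested. CPM here is the UMIs of a gene summed over the cells of a gate and scaled to 1000000 UMIs of all genes. As the libraries tag transcript ends, CPM does not scale with transcript length, and levels of different genes are set side by side on this scale. The intervals given are exact 95% intervals. They cover counting error only, take UMIs as independent, and leave out differences between cells, animals and tumours.

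The CD8 and NK gates carried different sets of these genes. In the untreated library, Prf1 (951 CPM, 95% interval 912 to 991) and Gzmb (699, 666 to 733) were highest in CD8 cells, whereas Gzma (1250, 1185 to 1317) and Gzmc (1037, 978 to 1099) were highest in NK cells. Gzma, a tryptase that cleaves after basic residues, was 15.2-fold, 6.68-fold, 10.4-fold and 10.3-fold higher in NK cells than in CD8 cells. Gzmc was 20.1-fold, 21.1-fold, 30.2-fold and 39.3-fold higher in NK cells. Gzmk, another tryptase and a marker of memory-like CD8 T cells, had the opposite distribution and was 22.3-fold, 35.0-fold, 8.43-fold and 5.68-fold higher in CD8 cells. Both directions held in each of the 4 libraries.

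**Figure D1:**
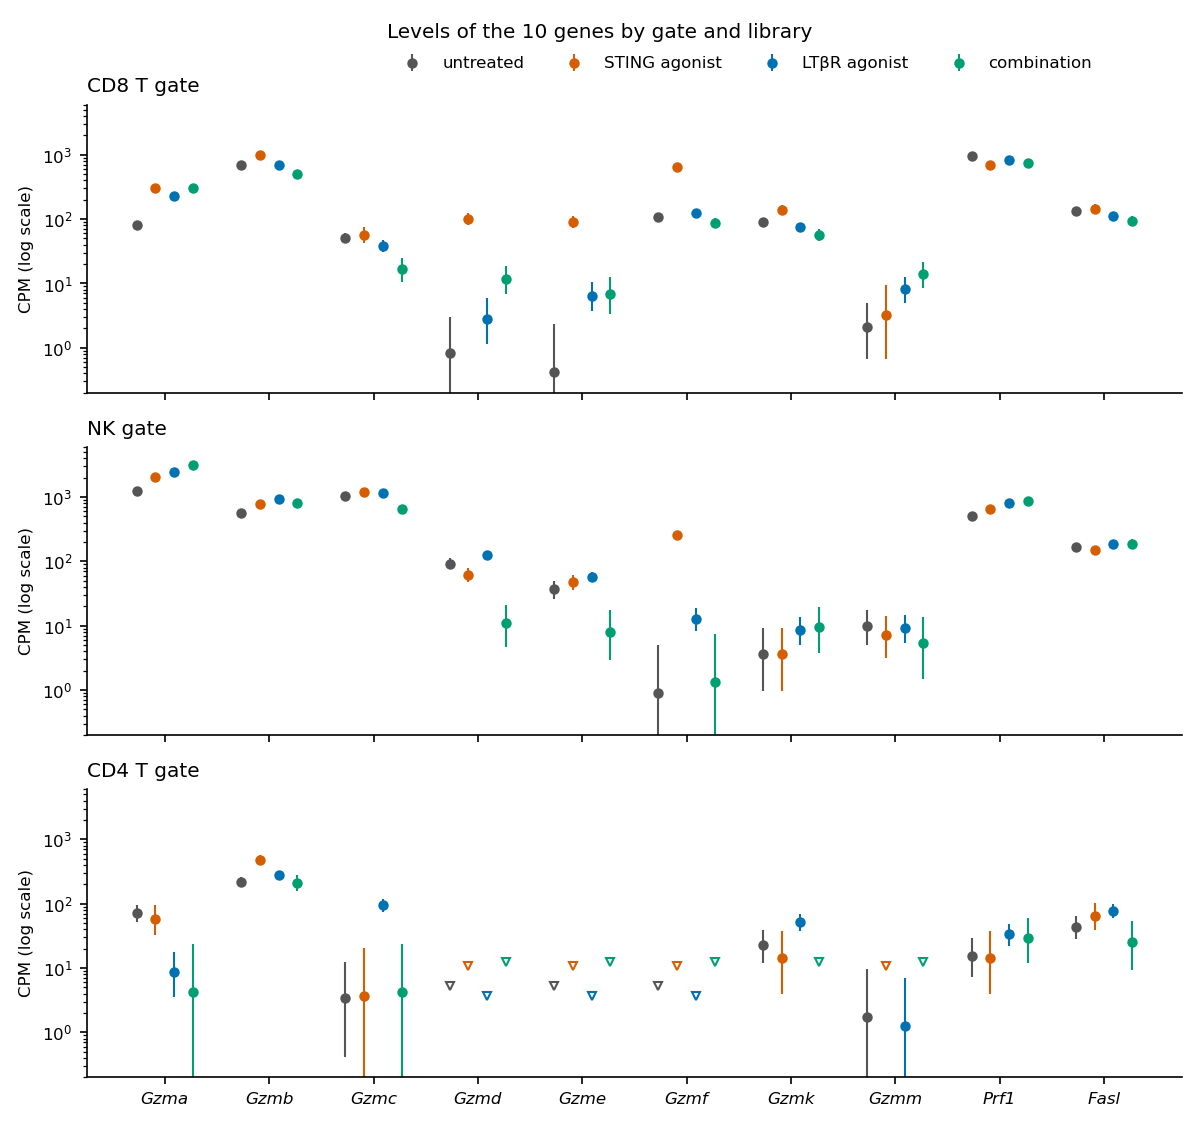
Level of each of the 10 genes in the CD8, NK and CD4 gates. The y axis is CPM on a log scale, points are the 4 libraries with exact 95% Poisson intervals, and open triangles mark the level that a count of 0 allows. Gzma in NK cells stands at 1250 CPM in the untreated library and at 3148 in the combination library, and Gzmd, Gzme and Gzmf were at 0 UMIs in CD4 cells of all 4 libraries.

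For the genes that both gates expressed strongly, the order of the gates depended on the library. Gzmb, the aspartate-cleaving granzyme that activates caspases, was lower in NK than in CD8 cells in the untreated and STING agonist libraries (log2 ratio of NK to CD8 of -0.29 and -0.35) and higher in NK cells in the LTβR agonist and combination libraries (0.41 and 0.73). Prf1 was lower in NK cells in the untreated library (-0.91), close to CD8 cells in both single agonist libraries (-0.05 in each), and higher in NK cells in the combination library (0.21). Fasl was higher in NK cells by 0.34, 0.76 and 1.02 on the same scale in the untreated, LTβR agonist and combination libraries. In the STING agonist library it was close to CD8 cells (0.05, -0.29 to 0.39).

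Of all Gzma UMIs in a library, NK cells held 61.4, 62.5, 63.1 and 63.8%, a share that differed little between libraries in which NK cells made 1.69 to 4.05% of kept cells. CD8 cells held 43.6, 25.1, 28.3 and 34.6% of the Gzmb UMIs and 57.1, 28.6, 38.2 and 42.1% of the Prf1 UMIs, in each case the most in the untreated library. T and NK gates together, with T cells that matched no subset, held 70.8 to 73.9% of the Gzmb UMIs, and cells that matched no gate held most of the rest. In the macrophage and monocyte gate, which should not express these genes, Gzma was at 1.94 to 9.25 CPM, Gzmb at 1.04 to 4.51 and Prf1 at 1.26 to 3.53, levels far under those of the CD8 and NK gates.

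Granzyme B and perforin act together. In CD8 cells the STING agonist library had more Gzmb and less Prf1 than the untreated library, and the combination library had less of both. Gzmb in CD8 cells was at 699 CPM in the untreated library, 995 (932 to 1062) with the STING agonist, 703 (670 to 737) with the LTβR agonist and 494 (458 to 531) with the combination. The STING agonist library was highest and the combination library lowest, and the intervals of the untreated and LTβR agonist libraries overlapped. Set against untreated on the log2 scale, these levels were 0.51 (0.39 to 0.63), 0.01 (-0.09 to 0.11) and -0.50 (-0.63 to -0.37). The combination was also lower than the STING agonist alone (-1.01, -1.15 to -0.87) and the LTβR agonist alone (-0.51, -0.64 to -0.38). Prf1 in CD8 cells was at 951, 688 (636 to 744), 833 (797 to 870) and 752 (708 to 798) CPM. It was lower than untreated in each treated library, by log2 ratios of -0.46 (-0.60 to -0.34), -0.19 (-0.28 to -0.10) and -0.34 (-0.44 to -0.23). When each cell was thinned to 1000 UMIs, the combination value turned to 0.01. Cells with at least 2 UMIs of proliferation genes, called cycling here, were 21.5% of the untreated CD8 cells and 11.9, 10.7 and 10.6% of the treated ones, and the part of this share in the results was not tested. The call used UMIs that were not thinned, so a deeper cell is called more easily. In untreated CD8 cells the median was 7281.5 UMIs in cycling cells and 4358 in the rest. The median of all CD8 cells was 4768 untreated and 2184.5 with the combination. The combination ratio of Gzmb was -0.88 in cycling cells and -0.19 (-0.35 to -0.04) in the rest. Prf1 in cycling cells was at 0.21 (0.05 to 0.37) with the LTβR agonist and -0.01 (-0.25 to 0.22) with the STING agonist, so that its lower level in these libraries was in the cells that were not cycling (-0.28 and -0.58).

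Gzma in CD8 cells was higher than untreated in each treated library. The levels were 82.1 CPM (71.0 to 94.5) untreated, 303 (268 to 341) with the STING agonist, 231 (213 to 251) with the LTβR agonist and 305 (277 to 335) with the combination, or 3.68-fold, 2.81-fold and 3.71-fold the untreated level. The intervals of the STING agonist and combination libraries overlapped. In cycling cells Gzma was not higher with the STING agonist (3 UMIs against 99, of which 1 untreated cell held 87.9%) or the LTβR agonist (log2 ratio -0.36, -0.90 to 0.15). These sums rested on few cells, as described below for single cells.

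Gzmk in CD8 cells was at 90.1, 141, 74.9 and 57.4 CPM, with log2 ratios of 0.65 (0.32 to 0.97), -0.27 (-0.56 to 0.02) and -0.64 (-1.03 to -0.28). Like Gzmb, it was highest with the STING agonist and lowest with the combination. Fasl in CD8 cells was at 133, 144, 111 and 93.4 CPM, with log2 ratios of 0.12 (-0.19 to 0.42), -0.25 (-0.49 to -0.02) and -0.51 (-0.81 to -0.21), so that the combination library was again lowest. Gzmm, a granzyme of innate lymphocytes that cleaves after methionine and leucine, was rare in CD8 cells with 5, 3, 20 and 20 UMIs, or 2.10, 3.28, 8.10 and 13.8 CPM. Nkg7, a granule protein shown for comparison, was at 2560, 2236, 1942 and 2227 CPM.

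The granzyme genes Gzmb, Gzmc, Gzmd, Gzme and Gzmf lie next to each other in a cluster on chromosome 14, where Gzmg and Gzmn lie between Gzmd and Gzmf. Their products beyond granzyme B are found in mice, and less is known of their substrates. Gzmd and Gzme were nearly absent from untreated CD8 cells. Gzmd had 2, 93, 7 and 17 UMIs (0.838, 102, 2.83 and 11.8 CPM), and Gzme had 1, 84, 16 and 10 UMIs (0.419, 91.8, 6.48 and 6.92 CPM). The STING agonist library stood apart for both, with log2 ratios of 6.61 (5.03 to 9.99) for Gzmd and 7.20 (5.26 to 13.10) for Gzme whose wide intervals follow from the untreated counts of 2 and 1. Gzmf was at 107 (94.5 to 121), 641 (591 to 695), 126 (112 to 140) and 88.5 (73.9 to 105) CPM, 5.97-fold higher with the STING agonist than untreated. This difference was gone when the 5% of CD8 cells with most UMIs were left out of each library (log2 ratio -0.024). Gzmc was at 51.5, 56.8, 38.5 and 16.6 CPM, and was lower than untreated with the combination (log2 ratio -1.61, -2.33 to -0.99). That difference lay in cycling cells, with 0 UMIs against 110, and in the other cells the ratio was reversed (1.27, 0.26 to 2.39, from 24 and 13 UMIs). Transcripts of Gzmd and Gzme were 90.5% identical in the GENCODE M21 annotation and shared a run of 96 bases, those of Gzmd and Gzmf were 83.5% identical and those of Gzme and Gzmf 84.8%. Gzmc was 70.7 to 71.4% identical to Gzmd, Gzme and Gzmf, with shared runs of 47 to 68 bases. Gzmg, which is not among the 10 genes, was 84.8 to 88.1% identical to Gzmd, Gzme and Gzmf, with runs of 72 to 101 bases. Reads can therefore be divided wrongly among Gzmd, Gzme, Gzmf and Gzmg, and their individual values are uncertain. The values of Gzmc can be affected likewise. Gzmb was 50.6 to 52.1% identical to its neighbours, but over alignments of 1443 to 1456 columns with gaps counted, which lowers the value. Its longest shared run was 49 bases with Gzmc and 18 to 26 with Gzmd, Gzme and Gzmf, so it is not free of this limit.

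The promoters of these neighbours are shown because the genes lie together and yet their levels diverged, with Gzmb detected in many cells and the others in few. Each line gives the 250 bases before the annotated start, from 5′ to 3′ on the minus strand of chromosome 14, from RefSeq on the build GRCm38.p6. Capitals mark matches on either strand to the cAMP response element (CRE, TGACGTCA), the RUNX core (TGTGGT, or ACCACA on the other strand) and the AP-1 element (TGANTCA), none of which overlap here.
Gzmb, chr14:56262335-56262584: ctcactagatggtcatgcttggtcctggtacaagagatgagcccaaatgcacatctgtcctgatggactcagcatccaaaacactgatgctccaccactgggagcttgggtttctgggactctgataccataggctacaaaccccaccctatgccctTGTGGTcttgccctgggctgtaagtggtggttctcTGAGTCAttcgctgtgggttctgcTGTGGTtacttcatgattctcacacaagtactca
Gzmc, chr14:56234658-56234907: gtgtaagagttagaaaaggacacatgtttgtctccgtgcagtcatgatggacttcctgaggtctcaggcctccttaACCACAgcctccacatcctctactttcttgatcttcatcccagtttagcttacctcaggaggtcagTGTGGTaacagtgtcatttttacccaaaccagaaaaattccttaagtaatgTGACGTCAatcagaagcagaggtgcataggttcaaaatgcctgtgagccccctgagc
Gzmd, chr14:56132594-56132843: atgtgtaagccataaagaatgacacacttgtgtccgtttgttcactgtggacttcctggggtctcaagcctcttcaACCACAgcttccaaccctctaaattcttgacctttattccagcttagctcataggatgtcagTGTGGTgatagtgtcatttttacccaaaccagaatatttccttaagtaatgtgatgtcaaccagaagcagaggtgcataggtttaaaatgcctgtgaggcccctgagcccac
Gzme, chr14:56120626-56120875: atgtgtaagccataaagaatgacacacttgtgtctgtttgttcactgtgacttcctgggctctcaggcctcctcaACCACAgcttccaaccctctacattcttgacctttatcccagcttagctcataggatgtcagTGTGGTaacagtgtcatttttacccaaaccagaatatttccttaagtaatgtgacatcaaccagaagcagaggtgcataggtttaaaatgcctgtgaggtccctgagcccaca
Gzmf, chr14:56211408-56211657: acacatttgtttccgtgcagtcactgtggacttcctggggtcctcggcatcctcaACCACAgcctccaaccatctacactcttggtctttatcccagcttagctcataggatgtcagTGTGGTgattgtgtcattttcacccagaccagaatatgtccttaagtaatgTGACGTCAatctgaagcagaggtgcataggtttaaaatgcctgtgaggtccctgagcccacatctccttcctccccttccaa

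Each of the 5 promoters held 2 RUNX core matches, a motif that 14% of 32851 promoters of the same length held. Runx3 is a factor that CD8 T cells use for their cytotoxic genes. The full CRE stood in the Gzmc promoter at -57 to -50 and in the Gzmf promoter at -82 to -75 from the start, against 1.55% of all promoters, and no other promoter of the 10 genes held it. The AP-1 element stood in the Gzmb promoter at -58 to -52, against 6.75% of all promoters. The Gzmd and Gzme promoters were 94.8% identical, those of Gzmc, Gzmd and Gzme 81.3 to 94.8% in pairs, and the Gzmb promoter was 47.9 to 51.1% identical to the other 4. Outside the cluster, the promoters of Gzma and Prf1 held 1 RUNX core match each, as did 1 of the 2 listed starts of Gzmm, and those of Gzmk and Fasl held none of the motifs. Gzma and Gzmk are neighbours on chromosome 13, Prf1 and Gzmm lie apart on chromosome 10, and Fasl lies on chromosome 1. These matches describe letters only.

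In NK cells, Gzma, Gzmb and Prf1 were all higher in each treated library than in the untreated library. Gzma was at 1250 CPM (1185 to 1317) untreated, 2024 (1941 to 2110) with the STING agonist, 2414 (2346 to 2484) with the LTβR agonist and 3148 (3021 to 3279) with the combination. None of these 4 intervals overlapped, and the combination was above both single agonists. On the log2 scale Gzma exceeded untreated by 0.70 (0.60 to 0.79), 0.95 (0.86 to 1.04) and 1.33 (1.24 to 1.43), the last a 2.52-fold difference, and the combination exceeded the STING agonist by 0.64 (0.55 to 0.72) and the LTβR agonist by 0.38 (0.31 to 0.45). When each cell was thinned to 1000 UMIs, the values against untreated were 0.33, 0.55 and 1.03. Prf1 in NK cells was at 506 (465 to 550), 663 (616 to 713), 806 (767 to 847) and 868 (802 to 938) CPM. It followed the same order, but the intervals of the LTβR agonist and combination libraries overlapped. Its log2 ratios were 0.39 (0.23 to 0.55), 0.67 (0.53 to 0.81) and 0.78 (0.61 to 0.94), whereas in CD8 cells all 3 were below 0.

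Gzmb in NK cells was at 573 (529 to 619), 781 (730 to 835), 935 (892 to 979) and 818 (754 to 886) CPM. The LTβR agonist library was highest, and the STING agonist and combination libraries did not differ beyond their intervals (log2 ratio of combination to STING agonist 0.07, -0.09 to 0.22). Against untreated the log2 ratios were 0.45 (0.30 to 0.60), 0.70 (0.57 to 0.84) and 0.51 (0.35 to 0.68). Gzmc was at 1037, 1212, 1168 and 665 CPM, lower than untreated in the combination library only (-0.64, -0.80 to -0.49), a difference that turned to 0.055 when each cell was thinned to 1000 UMIs. Gzmd had 103, 69, 250 and 8 UMIs, Gzme 41, 53, 114 and 6, and Gzmf 1, 287, 25 and 1. The combination library had the fewest UMIs of Gzmc, Gzmd and Gzme, but 1 untreated cell held 64 of the 103 Gzmd UMIs, and without the 5% of cells with most UMIs the combination was above untreated for Gzmd (log2 ratio 2.44) and Gzme (3.74). The STING agonist library held nearly all the Gzmf of NK cells. Fasl was at 168, 149, 189 and 190 CPM, and all 3 intervals of its ratios to untreated included 0. Gzmk (4, 4, 17 and 7 UMIs) and Gzmm (11, 8, 18 and 4 UMIs) were rare in NK cells. Nkg7 was at 1368, 1483, 1633 and 2127 CPM.

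**Figure D2:**
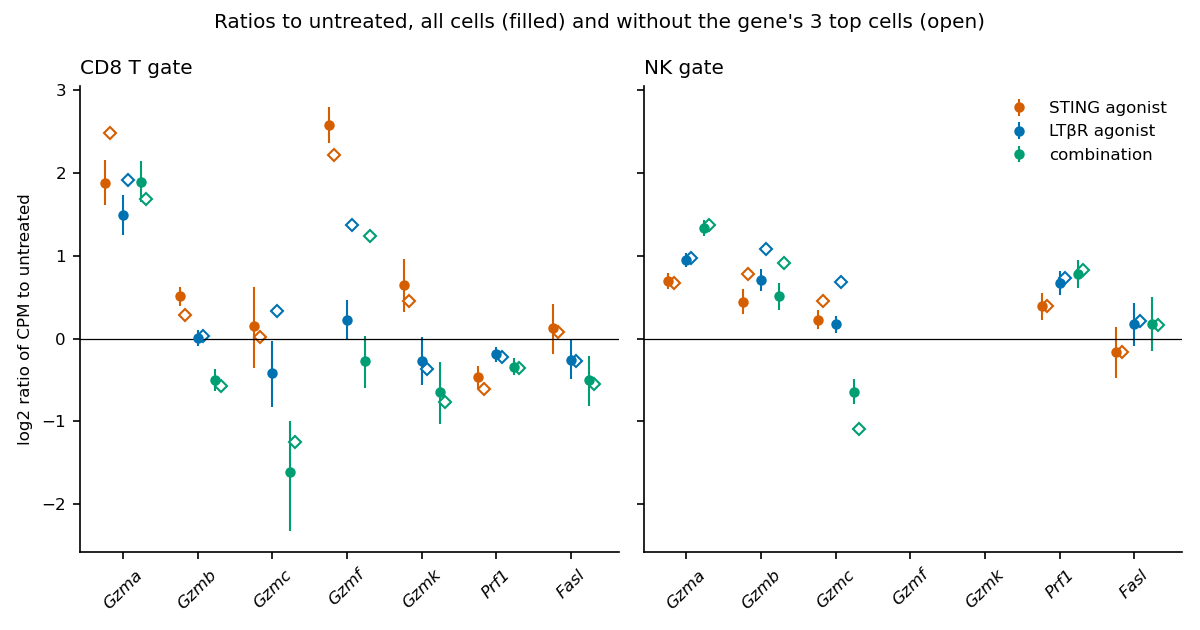
Log2 ratio of CPM in each treated library to the untreated library in CD8 cells (left) and NK cells (right), for genes with at least 20 UMIs in both libraries. Filled points are all cells with 95% intervals for counting error, and open diamonds leave out the 3 cells with most UMIs of that gene in each library. Gzma and Prf1 lie above 0 in NK cells for all treated libraries, and Prf1 lies below 0 in CD8 cells.

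Some cells of the NK gate carried a UMI of Trbc1, Trbc2 or Trdc, T cell receptor constant genes that NK cells can transcribe without a receptor, and 29.2, 31.0, 22.7 and 42.1% of the gate carried none. In cells without such a UMI, Gzma was at 798, 1357, 1963 and 3873 CPM, and in cells with it at 1395, 2220, 2505 and 2805. Gzma was thus higher than untreated in each treated library in both sets of cells. Gzmb differed between the sets, with 440, 222, 394 and 685 CPM in cells without a receptor UMI and 616, 945, 1044 and 881 in cells with one. Its log2 ratio to untreated was -0.98 (-1.47 to -0.51), -0.16 (-0.53 to 0.21) and 0.64 in the cells without and 0.62, 0.76 and 0.52 in the cells with. The direction turned with the set for the STING agonist, while the LTβR agonist interval in the cells without included 0. Cells without were shallower, with medians of 2660, 2252, 2211 and 1246 UMIs against 3582.5, 4716, 3310 and 2033.5. In the untreated cells without, the top 10% held 89.1% of the Gzmb UMIs. Prf1 in cells without was at 307, 294, 519 and 731 CPM, and its STING agonist ratio was -0.06.

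The granzymes of NK cells and CD8 cells also differed in their makeup. Gzma was 41.6, 46.0, 51.0 and 67.5% of the UMIs of the 8 granzymes in NK cells, while Gzmc was 34.5, 27.6, 24.7 and 14.2%. Gzmb kept a nearly even share in NK cells, 17.5 to 19.8%. In CD8 cells Gzmb was 67.6, 42.6, 59.0 and 49.7% and Gzma 7.95, 13.0, 19.4 and 30.7%. The share of Gzma was highest in the combination library in both cell types, but in CD8 cells 264 of the 441 combination UMIs of Gzma came from 1 cell. Gzmf made 27.5% of granzyme UMIs in CD8 cells of the STING agonist library and 8.91 to 10.5% in the others. All 10 genes together took 0.212, 0.317, 0.213 and 0.184% of all UMIs of CD8 cells and 0.368, 0.521, 0.573 and 0.572% of those of NK cells.

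The changes past 2-fold were few among all genes, and the 10 genes can be read against them. Among genes with at least 200 UMIs over the pair of libraries, 1.55% of genes in CD8 cells were at least 2-fold higher with the STING agonist than untreated and 1.04% at least 2-fold lower. Of the 10 genes, 6 had enough UMIs, and Gzma and Gzmf were past 2-fold higher. With the LTβR agonist 1.94% of genes were higher and 0.559% lower, and with the combination 1.56% and 0.429%. In each of these, Gzma was the only member past 2-fold, of 7 and 6 measured well enough. In NK cells 1.52, 0.22 and 0.606% of genes were past 2-fold higher with the STING agonist, the LTβR agonist and the combination, and 0.126, 0.378 and 0.404% lower. The members past it were Gzmf with the STING agonist (1 of 6), none with the LTβR agonist (0 of 6) and Gzma with the combination (1 of 5). Gzmf in NK cells had 1 UMI untreated and 287 with the STING agonist, 155 of them in 1 cell, so it reached the limit of 200 UMIs only through the library where it was high, and its place past 2-fold followed from the limit. In CD4 cells 1.13, 0.407 and 1.19% of genes were higher and 0.752, 0.407 and 1.05% lower, and Gzmb with the STING agonist was past 2-fold higher as the only member measured well enough (log2 ratio 1.15). With 124 and 132 UMIs in a pair of gates of unequal depth, it too reached the limit only through the library where it was high. It was under 2-fold with a gate of 3 marker UMIs and none of other lineages (0.72), with a looser gate (0.99) and without the 5% of cells with most UMIs (0.98). None of the members with enough UMIs was past 2-fold lower, and in CD4 cells with the combination no member had enough. Members under 200 UMIs in both libraries together are outside these counts, among them Gzmc in CD8 cells and Gzmd and Gzme in NK cells, which were past 2-fold lower with the combination. The median log2 ratio of all genes lay between -0.05 and 0.01 in these comparisons.

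CD4 cells expressed mostly Gzmb. It was at 216 (179 to 257), 480 (401 to 569), 280 (244 to 319) and 214 (159 to 281) CPM, which set against untreated on the log2 scale gave 1.15 (0.79 to 1.52), 0.37 (0.05 to 0.70) and -0.00 (-0.51 to 0.47). The STING agonist library stood above the others. The untreated and combination intervals overlapped, but 1 combination cell held 43.1% of its Gzmb UMIs, and without the 3 top cells of each library the combination ratio was -1.10. Prf1 was nearly absent, with 9, 4, 27 and 7 UMIs, and no UMI of Gzmd, Gzme or Gzmf was found, which at a limit of 3 UMIs for a count of 0 allows at most 3.73 to 12.6 CPM. Fasl was at 43.5, 65.4, 77.1 and 25.2 CPM from 25, 18, 62 and 6 UMIs. Gzmk had 13, 4, 42 and 0 UMIs. Gzma had 41, 16, 7 and 1 UMIs, of which 1 untreated cell held 34, and Gzmc had 2, 1, 76 and 1, of which 1 LTβR agonist cell held 74.

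Gzmb in CD4 cells was concentrated in cells with a UMI of Foxp3, the factor that defines regulatory T cells. These were 46, 18, 37 and 10 of the 169, 78, 267 and 116 CD4 cells, and they held Gzmb at 617, 1587, 1130 and 1089 CPM. Their share was highest in the untreated library and lowest with the combination, and its part in the level of the whole gate was not tested. CD4 cells without a Foxp3 UMI held it at 40, 116, 104 and 125 CPM. The log2 ratio of cells with to cells without Foxp3 was 3.91, 3.75, 3.44 and 3.13, in the same direction in all 4 libraries. When each cell was thinned to 1000 UMIs and the Foxp3 sets were called again on the thinned counts (32, 10, 28 and 8 cells with Foxp3, so that some cells moved to the set without it), the levels with and without Foxp3 were 406 and 119 CPM untreated, 2100 and 279 with the STING agonist, 929 and 148 with the LTβR agonist and 1375 and 102 with the combination, from 10 to 34 UMIs each. The direction was the same, but the contrast was then smallest in the untreated library and largest with the combination, so the order of the libraries is not read. Within the cells with Foxp3, Gzmb was above untreated by 1.36, 0.87 and 0.84. Without the 3 cells with most Gzmb in each library the ratio was 1.93 with the STING agonist. With the combination it was then -0.28 (-2.82 to 1.16), from 3 UMIs against 43. There 3 of 10 cells were left out against 3 of 46 untreated, so this value gives no direction. Within the cells without Foxp3, the ratios were 1.52 and 1.34 with the STING agonist and the LTβR agonist. With the 3 top cells left out likewise they were -0.46 (-3.13 to 1.40) and -0.04 (-1.29 to 1.37), from 3 and 15 UMIs against 9. The combination ratio of 1.62 was left with 0 UMIs against 9 untreated.

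Gamma-delta T cells were too few for a comparison of most genes, and no UMI of Gzmd, Gzme, Gzmf or Gzmk was found in them. Gzma had 4, 0, 1 and 23 UMIs, so that the combination library was at 431 CPM (273 to 646) and the untreated library at 54.3 (14.8 to 139). Its log2 ratio of 2.85 (1.44 to 4.98) turned to -0.56 with a gate that did not require the absence of Trbc1 and Trbc2. Prf1 had 3, 1, 26 and 12 UMIs, Fasl 3, 0, 10 and 9, Gzmb 1, 2, 7 and 4, and Gzmc 0, 0, 11 and 0. Thinned to 1000 UMIs, 12.5, 0, 16.3 and 40% of the cells (3 of 24, 0 of 12, 7 of 43 and 10 of 25) held a UMI of any of the 10 genes.

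The UMIs of these genes were unevenly spread over cells, and the share held by the cells with most UMIs was computed for each gene. As a scale, the 10% of CD8 cells with most UMIs of Ptprc, which encodes CD45 and is expressed by all sorted cells, held 22.1 to 29.2% of its UMIs, and for Nkg7 they held 27.8 to 34.3%. For Prf1 they held 51.0, 62.1, 67.7 and 61.9%, and for Gzmb 64.0, 68.7, 79.8 and 78.7%. Gzmb UMIs were thus more concentrated in top cells than Prf1 UMIs in all 4 libraries. In counts of cells, 50% of the Gzmb UMIs were in 26, 10, 18 and 18 CD8 cells, and 50% of the Prf1 UMIs in 44, 13, 33 and 39. Fasl never passed 5 UMIs in a CD8 cell, and its top 10% held 39.1, 37.1, 55.6 and 64.4%. For Gzmk the top 10% held 59.1, 62.0, 81.6 and 100%. In the combination library 56 CD8 cells held a Gzmk UMI, fewer than the 58 cells of the top 10%, so the 100% was fixed in advance. These shares of Fasl and Gzmk are from cells that were not thinned.

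Thinning each cell to 1000 UMIs removes the part that depth has in this measure. The top 10% of CD8 cells then held 61.7, 56.5, 82.6 and 78.7% of the Gzmb UMIs and 24.5 to 25.9% of the Ptprc UMIs. The LTβR agonist and combination libraries remained above the others for Gzmb, with Ptprc at a nearly even level.

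Gzma in CD8 cells was held by few cells. It was found in 23, 36, 52 and 49 CD8 cells, the cell with most UMIs held 44.4, 23.1, 22.2 and 59.9% of all Gzma UMIs of the gate, and 50% were in 2, 5, 4 and 1 cells. The untreated level thus rested largely on 1 cell with 87 UMIs, and the combination level on 1 cell with 264. That combination cell also held 47 Gzmb, 12 Gzmc and 19 Gzmf UMIs, and 7.67% of its 4628 UMIs came from the 10 genes. Without the 3 cells with most Gzma in each library, the level was 32.5, 182, 123 and 105 CPM, with log2 ratios to untreated of 2.48, 1.92 and 1.69. The direction was the same in each treated library.

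Gzmf was held by 17, 10, 18 and 19 CD8 cells, and in the STING agonist library 1 cell with 316 UMIs held 53.8%. Another STING agonist cell of 11839 UMIs held 114 Gzmf together with 51 Gzmd, 35 Gzme, 31 Gzmb and 42 Prf1. These were 51 of the 93 Gzmd and 35 of the 84 Gzme UMIs of that gate. Without the 3 top cells of each library, Gzmf was at 22.8, 107, 59.7 and 54.0 CPM, so that its ratio to untreated was 2.22, 1.38 and 1.24. All 3 treated libraries were then above untreated, whereas with all cells the LTβR agonist and combination intervals included 0. Gzmb in CD8 cells without its 3 top cells was at 598, 730, 611 and 402 CPM, with ratios of 0.29, 0.03 and -0.57.

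**Figure D3:**
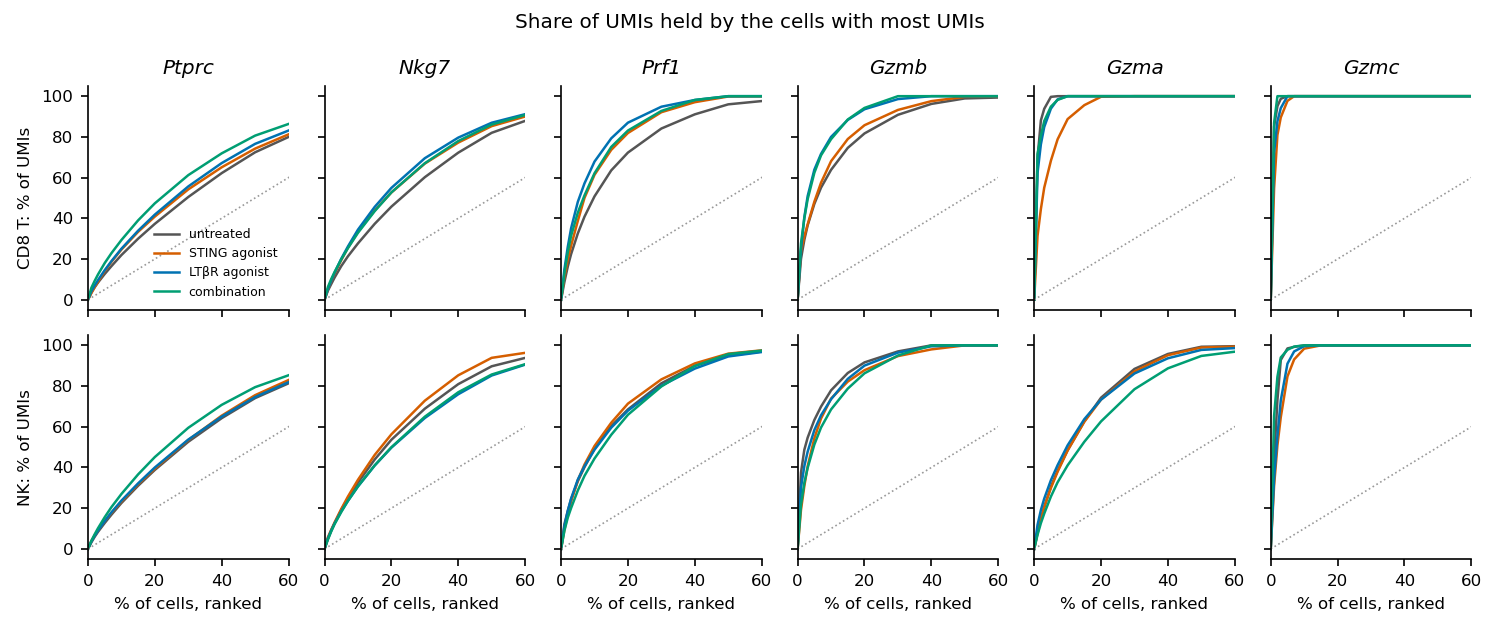
Share of the UMIs of a gene (y axis, %) held by the cells with most UMIs, ranked from the highest (x axis, % of cells of the gate), in CD8 cells (top) and NK cells (bottom). The dotted line is an even spread. The curves of Gzmb and Gzma in CD8 cells and of Gzmc in both gates rise far more steeply than those of Ptprc and Nkg7.

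In NK cells Gzma was spread more evenly. The top 10% of NK cells held 48.8, 48.1, 50.9 and 40.9% of its UMIs, and 50% of them were in 30, 26, 56 and 52 cells. Prf1 was like it, with 49.5, 50.3, 48.8 and 44.2% in the top 10%. Gzmb was more uneven, with 78.1, 73.6, 73.6 and 68.3%, and 1 untreated NK cell with 134 Gzmb UMIs held 21.1% of that library's NK Gzmb. Without the 3 top cells, Gzmb in NK cells was at 360, 617, 765 and 677 CPM, and its ratios to untreated were 0.78, 1.09 and 0.91. Those of Gzma changed little, from 0.70, 0.95 and 1.33 to 0.67, 0.97 and 1.38.

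Gzmc in NK cells was found in few cells although its level was like that of Gzma in the untreated library. It was detected in 28, 35, 66 and 29 NK cells, the top 10% of cells held 98.3 to 100% of its UMIs, and 4, 5, 10 and 3 cells held 50%. The untreated cell with most Gzmb was among them, with 184 Gzmc UMIs. Without its 3 top cells in each library, Gzmc was at 579, 790, 928 and 270 CPM. A STING agonist cell with 155 of the 287 Gzmf UMIs of NK cells also held 182 Gzmc.

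The cells highest in different genes were partly the same. Of the 10% of CD8 cells with most Gzmb, 37.8, 61.1, 45.9 and 48.3% were also among the 10% with most Prf1 (17 of 45, 11 of 18, 28 of 61 and 28 of 58 cells). With Fasl they shared 13.3, 16.7, 11.5 and 19.0%. The top Gzmf cells were few, and 64.7, 50, 83.3 and 31.6% of them were top Gzmb cells, which is 24.4, 27.8, 24.6 and 10.3% of the top Gzmb cells. Top cells of Gzma and Gzmc in the CD8 gate shared 0, 1, 2 and 1 cells. In NK cells 45.8 to 50% of the top Gzmb cells were top Prf1 cells, and 25.0, 50, 43.9 and 37.8% were top Gzma cells.

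The share of cells with a UMI was compared after thinning to 1000 UMIs, which left out shallower cells and kept 443, 173, 605 and 534 CD8 cells and 265, 236, 534 and 291 NK cells. The largest share of macrophage and monocyte cells with a UMI at this depth was 0.381%, for Gzma in the LTβR agonist library. Gzmb was detected in 31.2% (26.9 to 35.7), 34.1% (27.1 to 41.7), 19.3% (16.3 to 22.7) and 18.9% (15.7 to 22.5) of CD8 cells. Fewer CD8 cells held Gzmb in the LTβR agonist and combination libraries than in the untreated and STING agonist libraries. Prf1 was detected in 39.7% (35.1 to 44.5), 27.2% (20.7 to 34.4), 30.7% (27.1 to 34.6) and 33.0% (29.0 to 37.1), so that the untreated library was highest. Gzma was detected in 4.29% (2.60 to 6.62), 15% (10.1 to 21.2), 5.62 and 5.62%. The STING agonist library stood apart in its share of Gzma cells, whereas the LTβR agonist and combination libraries, which had 2.81-fold and 3.71-fold the untreated CPM, had a like share. Gzmk was detected in 7.0, 13.9, 6.28 and 5.06% and Fasl in 12.6, 17.9, 10.9 and 8.43%. Without thinning the shares for Gzmb were 54.1, 51.7, 34.0 and 27.1%, those for Prf1 67.1, 50.6, 46.3 and 43.5% and those for Gzma 5.15, 20.5, 8.47 and 8.39%.

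In NK cells the share with a Gzma UMI after thinning was 41.9% (35.9 to 48.1), 48.3% (41.8 to 54.9), 52.6% (48.3 to 56.9) and 64.6% (58.8 to 70.1). It had the same order as the level, and the interval of the combination library did not overlap that of any other library. Prf1 was detected in 32.1% (26.5 to 38.1), 35.6, 40.6 and 47.4% (41.6 to 53.3), and Gzmb in 22.6% (17.7 to 28.2), 25.0, 30 and 30.9% (25.7 to 36.6). These intervals cover the sampling of cells within a library, and with 1 library per group they do not show that the groups differ. Gzmc was detected in 6.79, 10.6, 9.55 and 7.22% and Fasl in 16.2, 13.1, 15.2 and 16.2%. A UMI of any of the 10 genes was found in 60, 63.0, 46.4 and 48.7% of CD8 cells, 70.6, 71.2, 75.1 and 81.1% of NK cells and 17.4, 23.1, 16.7 and 14.2% of CD4 cells. Without thinning, Gzma was found in 53.4, 58.7, 63.3 and 69.2% of NK cells.

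**Figure D4:**
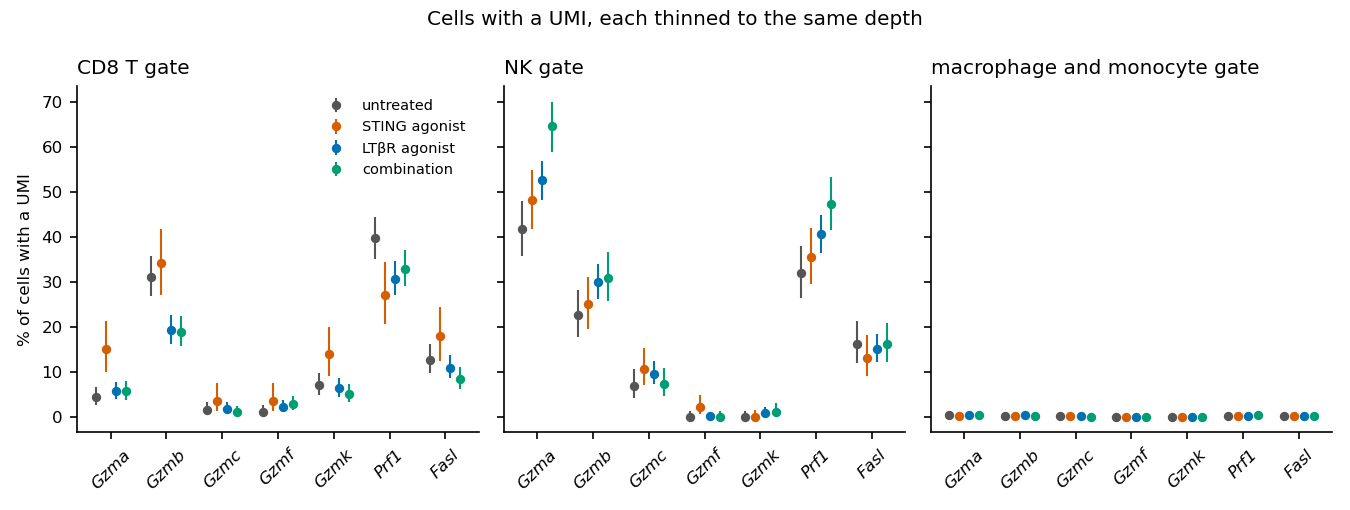
Share of cells with at least 1 UMI of a gene (y axis, %), each cell thinned to 1000 UMIs, with exact 95% binomial intervals, in the CD8, NK and macrophage and monocyte gates. Gzma in NK cells runs from 41.9% untreated to 64.6% with the combination, and Gzmb in CD8 cells is lower in the LTβR agonist and combination libraries.

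Detection of Gzmb was compared between cells with and without another of the genes. At 1000 UMIs, 44.9, 59.6, 39.8 and 36.4% of the CD8 cells with Prf1 also held Gzmb, against 22.1, 24.6, 10.3 and 10.3% of those without Prf1. Among CD8 cells with Gzmk, a gene often linked to cells with less cytotoxic function, 67.7, 58.3, 52.6 and 33.3% held Gzmb, against 28.4, 30.2, 17.1 and 18.1% of those without. For Fasl the shares were closer, with 33.9, 41.9, 31.8 and 20% against 30.7, 32.4, 17.8 and 18.8%. In NK cells 37.8, 39.5, 44.1 and 40.4% of the cells with Gzma held Gzmb, against 11.7, 11.5, 14.2 and 13.6% of those without, and for Prf1 the shares were 29.4, 45.2, 45.2 and 44.9% against 19.4, 13.8, 19.6 and 18.3%. Fasl in NK cells had no such order, with Gzmb in 23.3, 12.9, 30.9 and 51.1% of the cells with Fasl against 22.5, 26.8, 29.8 and 27.0% of those without. Cells with UMIs of 3 or more of the 10 genes made 7.45, 15, 8.43 and 5.81% of CD8 cells and 13.2, 17.8, 22.3 and 23.7% of NK cells.

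Cycling cells, defined by unthinned UMIs of Mki67, Top2a, Birc5, Ccna2, Cdk1 and Pclaf, were compared with the others for genes of the cluster. In untreated CD8 cells, cycling cells held Gzmc at 143 CPM against 8.05 in the rest, Gzmf at 302 against 14.2 and Gzmb at 1000 against 555. With the STING agonist Gzmc was 221 against 17.6 and Gzmf 498 against 676 CPM, and with the LTβR agonist Gzmc was 106 against 22.9 and Gzmf 182 against 113. Single cells carried much of these values. 1 cell held 36.4% of the Gzmc and 38.6% of the Gzmf of untreated cycling cells, 43.6 and 72.7% with the STING agonist and 77.6 and 76.2% with the LTβR agonist, and 63.3% of the Gzmf of the STING agonist cells that were not cycling. In the combination library Gzmf was 30.9 against 99.2 CPM, and Gzmc had no UMI in cycling cells. Cycling NK cells were 17, 16, 26 and 10 cells. In the untreated library they held Gzmb at 1717 CPM against 433 in the rest, with 64.4% of it in 1 cell, and Gzma at 347 against 1361. Gzmb was 698 against 793 CPM with the STING agonist, 834 against 944 with the LTβR agonist and 1468 against 768 with the combination, so that its order differed between libraries, and 1 cell held 72.5, 55.8 and 46.2% of the Gzmb of these cycling cells. Gzma was 2018 against 2025, 1777 against 2472 and 2936 against 3164 CPM, which is at or below the rest in each. Gzmc in cycling NK cells was 4094 against 663 CPM untreated, 698 against 1290 with the STING agonist, 2145 against 1079 with the LTβR agonist and 2089 against 554 with the combination. Gzmd was 669 against 22.3, 0 against 71.5, 586 against 85.1 and 0 against 11.7 CPM. The order of both thus differed between libraries.

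The 47 other genes of these routes were listed by role. In CD8 cells 32, 36 and 33 had enough UMIs in the comparisons of the STING agonist, the LTβR agonist and the combination with untreated. Of these, 3, 1 and 1 were past 2-fold higher and none lower, beside 1.55, 1.94 and 1.56% of all genes higher and 1.04, 0.559 and 0.429% lower. Tcf7, a factor of naive and memory T cells, was the gene in all 3, at 96.4 CPM untreated and 238, 350 and 334 in the treated libraries. Il2ra, the high-affinity receptor chain for interleukin-2, was at 57.0 CPM untreated and 186 with the STING agonist, and Il12rb2, a chain of the interleukin-12 receptor, at 144 and 355. At 57.0 CPM in both libraries Il2ra would have stayed under 200 UMIs, so it reached the limit only through the library where it was high. The medians of the log2 ratios over the tested pathway genes were 0.02, -0.14 and -0.23 in CD8 cells, against medians of all genes near 0. Granule and trafficking genes had medians of 0.02, 0.03 and -0.17 there, with none of 12, 14 and 12 tested past 2-fold.

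In NK cells 22, 27 and 22 of the 47 genes had enough UMIs and none was past 2-fold in either direction. Of all genes, 1.52, 0.22 and 0.606% were higher and 0.126, 0.378 and 0.404% lower there, so a count of 0 is near that share. Serpinb9, the intracellular inhibitor that protects killer cells from their own granzyme B, was at 470, 758, 638 and 764 CPM in NK cells, with log2 ratios of 0.69 (0.53 to 0.85), 0.44 (0.29 to 0.59) and 0.70 (0.53 to 0.88). Its relative Serpinb6b had ratios of 0.59, 0.53 and 0.62, and the median of the 3 tested inhibitors was 0.59, 0.44 and 0.62. Serpinb9 was thus above untreated in each treated library, as Gzma, Gzmb and Prf1 were in this gate. In CD8 cells Serpinb9 was at 220 CPM untreated and 413, 196 and 187 in the treated libraries, highest with the STING agonist as Gzmb was. Tbx21 and Eomes, the T-box factors that drive cytotoxic genes, had ratios between -0.11 and 0.33 in NK cells. In CD4 cells 7, 14 and 7 had enough UMIs, and Nkg7 with the STING agonist (437 to 200 CPM) and Id2 with the combination (743 to 352 CPM) were past 2-fold lower, beside 0.752 and 1.05% of all genes.

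Genes whose level was most like that of a member were ranked by the correlation over the 16 pools of 4 gates and 4 libraries, among 4774 genes. The pools share libraries and gates, so the values are a description. Prf1 was most like Nkg7 (r = 0.969), Klrd1 (0.965), which encodes the NK receptor subunit CD94, and Ctsd (0.947). Gzma was most like Dusp2 (0.929), Fhl2 (0.910) and Adamts14 (0.902), the last a neighbour of Prf1 on chromosome 10. Gzmb was most like Cct5 (0.919), Agpat3 (0.900) and Nabp1 (0.895), Gzmk was most like Nrn1 (0.920), and Fasl was most like Anxa2 (0.940). For Gzmd and Gzmf the highest values were 0.782 and 0.820.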

How the data were processed

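The data are 4 single-cell RNA libraries of sorted CD45+ cells, 1 per group. The deposited matrices hold UMI counts per gene and cell with no normalization, made by the authors with Cell Ranger. The file headers give version 8.0.1, the submitters' processing notes 7.1.0 with mm10, and the labels and the study's methods name different 5′ kits.

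Cells with 300 to 5000 genes and at most 6% mitochondrial UMIs were kept, as in the study. T and NK gates needed at least 2 UMIs of their marker genes and at most 1 UMI of other lineages, the limit by which doublets were removed, since no doublet caller was run. NK cells had no UMI of Cd3d, Cd3e, Cd3g or Trac. Gamma-delta cells had Trdc without Trac, Trbc1 or Trbc2. Counts were summed per gate and library, and ratios used 0.5 UMI added to each sum, with exact binomial intervals. Thinning drew 1000 UMIs from each cell in 1 random draw. Genes were compared past 2-fold at 200 or more UMIs. With 1 library per group no test was possible. The ratio calculation was checked on simulated counts. Python 3.11.15, numpy 2.4.6, scipy 1.17.1 and pandas 2.3.3 were used.

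The 10 genes are those named at the outset. They and the gene lists were chosen with earlier results of these data known. Other genes were named where they passed 2-fold or were most alike in level, or for their role. The study's other single-cell experiment was not analysed here, and a split of CD8 cells by checkpoint genes is not reported here. Alternatives covered gates, cell limits, scaling, depth and top cells.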

Additional observations from a re-analysis of the deposited data

Results flagged for a closer look

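Ratios to untreated of some genes had opposite directions in NK and CD8 cells, with both counting intervals on opposite sides of 0. The differences themselves were not tested, as each group was 1 library. For Prf1 the NK ratio exceeded the CD8 ratio on the log2 scale by 0.85 with the STING agonist (0.39 against -0.46), 0.86 with the LTβR agonist (0.67 against -0.19) and 1.12 with the combination (0.78 against -0.34). The directions were no longer opposite for the STING agonist in NK cells without T cell receptor UMIs (-0.06), nor for the combination in CD8 cells thinned to 1000 UMIs (0.014). For Gzmb with the combination the difference was 1.01 (0.51 in NK cells, -0.50 in CD8 cells), and for Gzmc with the LTβR agonist it was 0.59 (0.17 against -0.42), though without the 3 top cells the CD8 value was 0.33 and in NK cells without T cell receptor UMIs the NK value was -1.80. For Gzmd with the STING agonist it was -7.18 (-0.58 against 6.61), from 2 UMIs in untreated CD8 cells, and the NK value was 0.61 with all deposited cells, 3.17 without the deepest cells, 2.77 without the 3 top cells and 0.47 as a mean of shares, so that the directions were then no longer opposite.

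Outside the T and NK gates, the small mast cell and basophil gate of 9 to 11 cells a library held Gzmb and Gzmc. Gzmb was at 1069 CPM in the STING agonist library (49 UMIs in 11 cells, 28.6% in 1 cell) and at 1576 CPM in the LTβR agonist library (52 UMIs in 9 cells, 71.2% in 1 cell), above 286 CPM in the untreated library (10 UMIs) and 139 CPM in the combination library (2 UMIs). Gzmc was at 7334 CPM in the LTβR agonist library, where 1 cell held 241 of 242 UMIs, and 1 cell of that gate held 12 UMIs of Prf1, which had no UMI in this gate of the other 3 libraries.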

How the results depend on the processing

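No paired analysis was possible because each group has 1 library. Over 70 ratios to untreated and 772 alternative values, 713 kept the direction. Gzma kept it in 36 of 36 values in NK cells (0.33 to 2.28) and 36 of 36 in CD8 cells (0.88 to 2.48). Prf1 kept it in 35 of 36 in each, Gzmb in 34 of 36 in NK cells and 32 of 36 in CD8 cells. Each count of 36 covers 3 ratios to the same untreated library, and some alternatives, such as another scaling, could hardly turn a direction. The Gzmb ratio in CD8 cells with the LTβR agonist was 0.01 (-0.09 to 0.11), so its direction carries no meaning. Unless said otherwise, values are log2 ratios to untreated, and the cause of a shift was not tested. The deepest cells and the top cells carry much of Gzmc to Gzmf, and depth limits the combination library most.

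With all deposited cells, Gzma in NK cells with the STING agonist was 0.59 and Gzmd there 0.61, the latter reversed. A strict gate (3 marker UMIs, none of other lineages) gave 0.72 for Gzmb in CD4 cells with the STING agonist and, in NK cells, 0.23 for Gzmb and -0.12 for Gzmc with the STING agonist, 0.79 for Gzma with the LTβR agonist and 0.91 for Gzmb with the combination. The top 10% of NK cells then held 70.8 and 68.4% of Gzmb in the untreated and STING agonist libraries. A loose gate gave 0.49 and 1.18 for Gzma in NK cells with the STING agonist and the combination, and Gzmb shares of 77.7, 77.1 and 72.6% in the top 10% of NK cells of the treated libraries.

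Without the 5% of cells with most UMIs, Gzmb in CD8 cells with the STING agonist was 0.26 and Gzmf -0.024, and Gzmc in CD4 cells with the LTβR agonist -0.42. In NK cells Gzmb was 1.03 with the STING agonist and 1.13 with the combination, Gzma 0.67 with the LTβR agonist, Gzmd 3.17 with the STING agonist, and Gzmc, Gzmd and Gzme 0.035, 2.44 and 3.74 with the combination. The top 10% of CD8 cells held 61.3 and 64.1% of Gzmb in the untreated and STING agonist libraries, and the top 10% of NK cells 66.6 and 66.1% in the untreated and LTβR agonist libraries.

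With other subset markers (Cd8b1 alone, and NK cells without Trbc1, Trbc2 or Trdc), Gzmb in CD8 cells with the STING agonist was 0.64. In NK cells with the STING agonist Gzmb was -0.98, Gzmc -0.61 and Prf1 -0.062, with the LTβR agonist Gzma was 1.30, Gzmb -0.16, Gzmc -1.80 and Gzme -2.40, and with the combination Gzma was 2.28. Gzma in gamma-delta cells with the combination was -0.56. The top 10% of cells held 63.5% of Gzmb in STING agonist CD8 cells, and 89.1, 80.0 and 63.6% in untreated, LTβR agonist and combination NK cells.

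Thinned to 1000 UMIs, Gzmb in CD8 cells was 0.66 with the STING agonist and -0.26 with the LTβR agonist, Prf1 there 0.014 with the combination, and Gzmb in CD4 cells 1.56 with the STING agonist. In NK cells Gzma was 0.33, 0.55 and 1.03, and with the combination Gzmb was 0.78 and Gzmc 0.055. The top 10% held 56.5 and 82.6% of Gzmb in STING agonist and LTβR agonist CD8 cells and 69.5 and 66.4% in untreated and LTβR agonist NK cells.

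Without a gene's 3 top cells, Gzmb was 0.29 in CD8 cells with the STING agonist, 0.77 and -1.10 in CD4 cells with the LTβR agonist and the combination, and 0.78, 1.09 and 0.91 in NK cells. Gzmc in CD8 cells with the LTβR agonist was 0.33, Gzma in CD4 cells with the LTβR agonist 2.31 (3 UMIs against 0, so a value set by the 0.5 UMI added) and Gzmd in NK cells with the STING agonist 2.77. As a mean of each cell's share, Gzmb was 1.54 in CD4 cells with the STING agonist and 0.83, 0.88 and 1.04 in NK cells, Gzmd in NK cells with the STING agonist 0.47 and Gzma with the LTβR agonist 0.79.

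Genes past 2-fold in CD8 cells numbered 85, 112 and 74 at 200 UMIs, 330, 328 and 277 at 50 UMIs and 3115, 4498 and 3475 with no minimum. In CD4 cells they numbered 15, 12 and 17, then 142, 114 and 140, then 3864, 4318 and 3835, and in NK cells 39, 19 and 20, then 187, 119 and 147, then 4469, 3163 and 3273. For CD4 cells with and without Foxp3, alternatives were chosen after seeing the data. Gzmb in CD4 cells with Foxp3 and the combination was -0.28 without the 3 top cells, from 3 UMIs against 43. In CD4 cells without Foxp3, Gzmb was -0.46, -0.038 and -3.36 without the 3 top cells, the last from 0 UMIs against 9. It was -0.19 there with the combination when thinned.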
